A study of Saccharomyces cerevisiae with 30 samples.

Results

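The 10 genes described here encode the enzymes that carry pyruvate to ethanol, acetate and acetyl-CoA in budding yeast. They were taken by name from a table of 7127 genes and comprise the pyruvate decarboxylases PDC1, PDC5 and PDC6, the alcohol dehydrogenases ADH1 and ADH2, the aldehyde dehydrogenases ALD6, ALD4 and ALD5, and the acetyl-CoA synthetases ACS1 and ACS2. All 10 passed the filter on low values. In this pathway a decarboxylase splits pyruvate into acetaldehyde and carbon dioxide. Alcohol dehydrogenase then reduces acetaldehyde to ethanol, which is the main route on glucose, or aldehyde dehydrogenase oxidises it to acetate, which an acetyl-CoA synthetase activates. Several steps have one isozyme that serves fermentation and others that glucose holds low.

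RNA was sequenced from 2 strains at 0, 30, 60, 120 and 180 min after 1 µM beta-estradiol, with 3 libraries per strain and time and 30 in all. The lox-flanked strain, called CEN4* at 0 min and cen4- afterwards, carried lox-CEN4-lox:KanMX, with the centromere of chromosome IV between lox sites, and GDP-creEBD78:LEU2, an estradiol-dependent Cre recombinase expressed from the GDP promoter that can remove it. The CEN4 control had ura3::GDP-cre EBD78:LEU2 and no lox sites. Both were haploid MATa strains of S288c descent with ura3-delta-0, leu2-delta-0, his3-delta-1 and met15-delta-0. Both grew in YPD, which is rich in glucose, at 30 °C, and both received beta-estradiol. The number of clones per strain was not given in the sources used here, and the share of cells that had lost the centromere was not measured in these libraries. Whether a transcript fell in all cells or in some of them cannot be told apart in population RNA.

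Libraries held 8218002 to 14956813 reads. URA3 and MET17, which both genotypes lack, were at 0 in all 30 libraries. The 6 a-cell markers summed to 22642 to 46246 normalised counts in the lox-flanked strain and 31960 to 53828 in CEN4. The 4 alpha-cell markers summed to 685 to 781 normalised counts in the lox-flanked strain and 586 to 741 in CEN4. The 3 libraries of a group came from independent experiments, so the tests measure the spread between those.

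None of the genes lies on chromosome IV, and no other R64 gene overlaps their coding sequences. PDC1 (YLR044C) is at chrXII:232390-234081 on the minus strand, PDC5 (YLR134W) at chrXII:410723-412414 on the plus strand and PDC6 (YGR087C) at chrVII:651290-652981 on the minus strand. ADH1 (YOL086C) is at chrXV:159548-160594 and ADH2 (YMR303C) at chrXIII:873291-874337, both on the minus strand. ALD6 (YPL061W) is at chrXVI:432588-434090, ALD4 (YOR374W) at chrXV:1039840-1041399 and ALD5 (YER073W) at chrV:304030-305592, all on the plus strand. ACS1 (YAL054C) is at chrI:42881-45022 and ACS2 (YLR153C) at chrXII:445524-447575, both on the minus strand. Each has 1 coding exon. The authors' deposited table gives a TATA box for 6 of the 10 (PDC1, ADH1, ALD6, ALD4, ALD5 and ACS2) and no promoter class for the other 4. It gives a TATA box for 12.5% of the 5948 genes tested.

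The upstream windows of 4 genes are shown because they belong to the genes whose isozymes parted most (ALD4 and PDC6) and to those classed in textbooks as glucose-repressed (ADH2 and ACS1). Each runs from 400 to 101 bases before the start codon, 5′ to 3′ along the coding strand, read from the RefSeq genome, build R64. Capitals mark matches, on either strand, to 7 short motifs known from this species. These were TTGGAG and TTGGGG (Adr1, an activator of glucose-repressed genes), a simplified carbon source response element (the site of Cat8 and Sip4, searched as CC and CCG with 6 bases of any kind between), CCCCGC (core of the site of the repressor Mig1), CCCCT (the stress element of Msn2 and Msn4), CACGTG (Cbf1) and CTGTGG (Met31 and Met32). The ADH2 window is chrXIII:874438-874737, minus strand, that of ALD4 chrXV:1039440-1039739, plus strand, that of ACS1 chrI:45123-45422, minus strand, and that of PDC6 chrVII:653082-653381, minus strand.
ADH2: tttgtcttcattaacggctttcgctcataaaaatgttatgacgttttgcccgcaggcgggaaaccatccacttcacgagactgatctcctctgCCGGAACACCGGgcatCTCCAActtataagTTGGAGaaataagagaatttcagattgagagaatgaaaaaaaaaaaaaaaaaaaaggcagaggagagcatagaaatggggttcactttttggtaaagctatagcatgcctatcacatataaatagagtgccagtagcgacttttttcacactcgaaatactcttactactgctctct
ALD4: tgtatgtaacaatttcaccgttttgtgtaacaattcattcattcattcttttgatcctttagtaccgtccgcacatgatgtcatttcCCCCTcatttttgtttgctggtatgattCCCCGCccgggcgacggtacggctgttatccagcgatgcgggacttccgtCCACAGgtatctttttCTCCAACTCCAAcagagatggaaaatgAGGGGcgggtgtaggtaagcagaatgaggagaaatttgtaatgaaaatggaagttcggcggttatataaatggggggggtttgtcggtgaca
ACS1: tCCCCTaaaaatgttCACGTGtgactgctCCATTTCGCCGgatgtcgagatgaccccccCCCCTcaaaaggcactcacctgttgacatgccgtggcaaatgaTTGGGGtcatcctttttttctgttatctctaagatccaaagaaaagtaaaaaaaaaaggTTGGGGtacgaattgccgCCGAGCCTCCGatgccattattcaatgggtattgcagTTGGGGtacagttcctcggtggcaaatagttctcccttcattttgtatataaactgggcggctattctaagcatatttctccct
PDC6: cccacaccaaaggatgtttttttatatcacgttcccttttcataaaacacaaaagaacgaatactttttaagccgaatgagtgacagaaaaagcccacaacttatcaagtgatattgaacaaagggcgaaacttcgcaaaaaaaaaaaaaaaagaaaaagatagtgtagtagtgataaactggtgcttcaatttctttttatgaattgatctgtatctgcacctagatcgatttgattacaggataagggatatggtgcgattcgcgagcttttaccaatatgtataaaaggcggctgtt

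ADH2 had a TTGGAG match on each strand, at 291 to 286 and 277 to 272 bases before the start codon, and beside them overlapping matches to the carbon source element on both strands. ALD4 had 2 adjoining TTGGAG matches, at 219 to 214 and 213 to 208 bases, with a CTGTGG match at 235 to 230 bases, a CCCCGC match and 2 CCCCT matches. ACS1 had 3 TTGGGG matches, with further matches to the Cbf1, stress and carbon source motifs. The PDC6 window had none of the 7 motifs, and neither had that of ACS2. Among 6007 gene windows of this length, TTGGAG occurred in 11.4%, TTGGGG in 6.21%, the carbon source element in 14.6%, CCCCGC in 3.85%, CACGTG in 4.54% and CTGTGG in 8.34%. CCCCT occurred in 23.5% of windows and in those of 7 members, PDC1, PDC5, ADH1, ALD6, ALD4, ALD5 and ACS1. In ALD6 it overlaps a carbon source match. A match describes the letters of a window and is not evidence of binding.

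The genes spanned 3 orders of level. Per kilobase of coding sequence, the level in CEN4* cells at 0 min was highest for ADH1 (104844 ± 743 normalised counts per kb; SD, n = 3 here and below) and PDC1 (84163 ± 230). ALD6 followed at 4030 ± 226, ACS2 at 1675 ± 40.9 and ALD5 at 1475 ± 32.1 normalised counts per kb. ALD4 (681 ± 36.9) and ADH2 (609 ± 33.7) overlapped, as did ACS1 (116 ± 1.10) and PDC5 (114 ± 9.15), and PDC6 was lowest at 45.8 ± 10.8 normalised counts per kb. At 180 min in cen4- cells ALD4 (2798 ± 49.3 normalised counts per kb) had passed ALD6 (2502 ± 109), and PDC6 (289 ± 20.7) had passed ACS1 (189 ± 11.2) and PDC5 (175 ± 18.6). In CEN4 cells at 180 min ALD6 (2820 ± 174 normalised counts per kb) was still above ALD4 (938 ± 67.3), with no overlap of libraries. Together the 10 genes took 1.70% ± 0.0219 of reads in cen4- cells at 180 min and 1.82% ± 0.0344 in CEN4 cells, against 2.26% ± 0.00453 in CEN4* and 2.23% ± 0.0555 in CEN4 at 0 min.

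**Figure D1:**
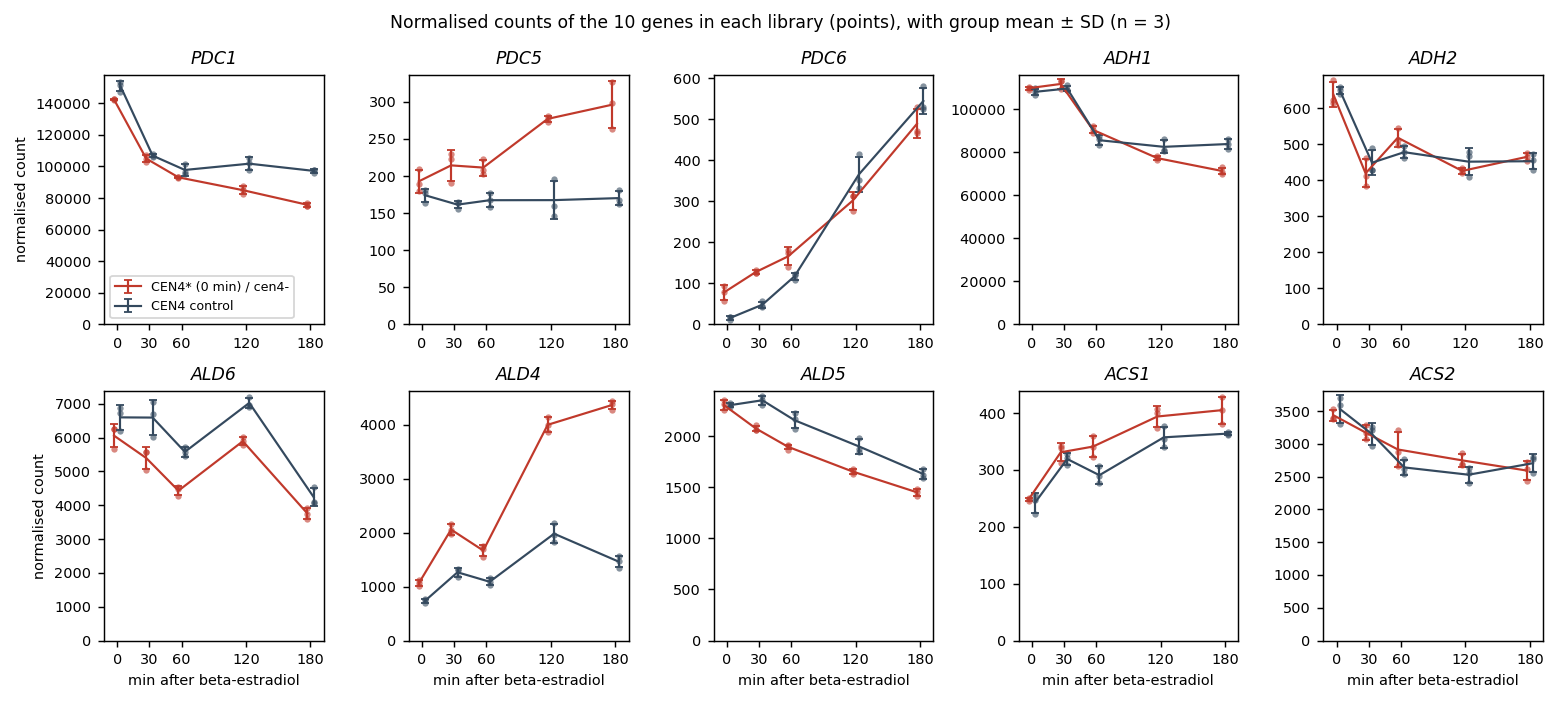
Normalised counts of the 10 genes (vertical axes, each from 0) against min after beta-estradiol, with a point per library and lines and bars for the mean ± SD of 3 libraries; red is the lox-flanked strain (CEN4* at 0 min, cen4- later) and blue the CEN4 control. The ALD4 mean was higher in the lox-flanked strain at every time, by 0.52 (log2) at 0 min and 1.58 at 180 min, and the PDC6 lines crossed between 60 and 120 min.

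The effect of centromere removal was taken as the lox-flanked strain's change since 0 min less that of CEN4, on the log2(normalised count + 1) scale, and is called the excision effect. It sets aside changes that beta-estradiol or time in culture brought to both strains, and any difference between the strains that stayed constant. At 180 min 6 of the 10 genes passed the test (limma, adjusted p below 0.05), 2 upward (ALD4 and PDC5) and 4 downward (PDC6, PDC1, ADH1 and ALD5). Of all 5948 genes 42.3% passed, 19.8% upward and 22.5% downward, so a call by itself did not set these genes apart. With all libraries set to 1 common total in place of the deposited size factors, 1856 of all genes passed upward and 788 downward, against 1180 upward and 1336 downward with those factors. The median excision effect was -0.04 over the 10 genes and -0.01 over all genes. At 120 min the same 6 genes passed in the same directions (26.1% of all genes), at 60 min PDC6 and ALD5 passed (2.91%), and at 30 min PDC6 did (1.85%). The 4 times share the 0 min libraries and are not independent of each other. For single genes below it is stated whether the libraries of the strains overlapped. The share of all genes without such overlap was not counted. At 180 min 64.1% of all genes differed directly between the strains (limma, adjusted p below 0.05). A lack of overlap at that time therefore did not by itself set a gene apart either.

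**Figure D2:**
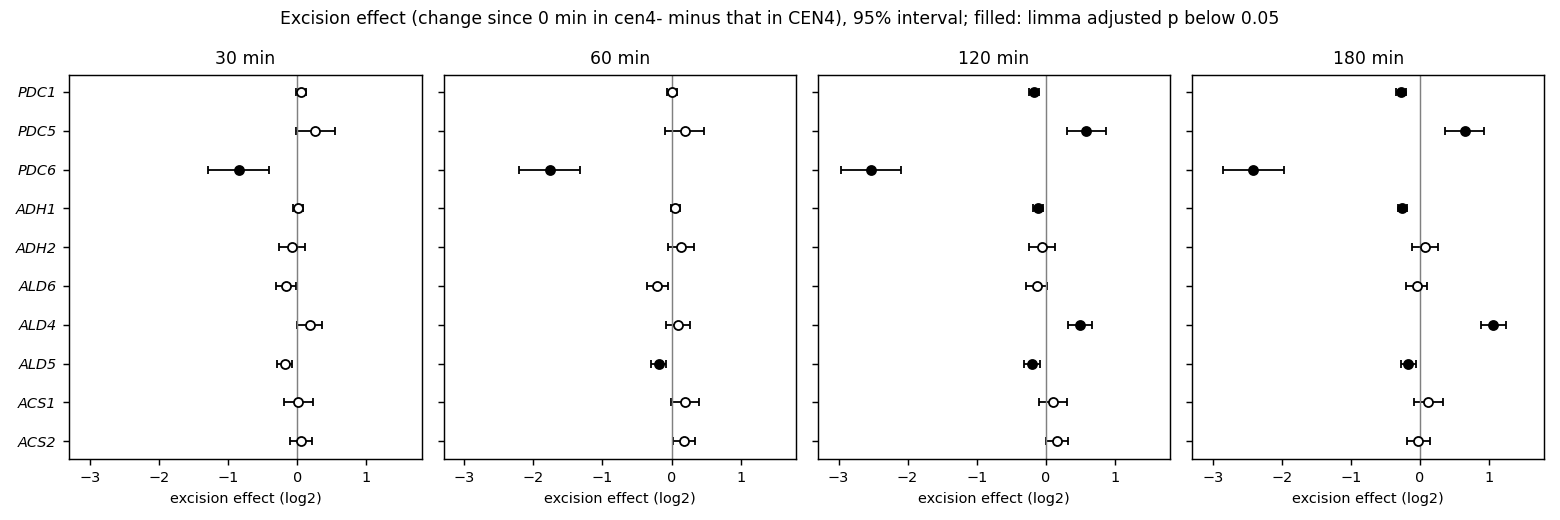
Excision effect (log2, horizontal axis) of the 10 genes in panels for 30, 60, 120 and 180 min, with 95% intervals; filled points passed limma at an adjusted p below 0.05. PDC6 lay furthest left at each time, at -2.41 at 180 min, and ALD4 furthest right at 180 min, at 1.06.

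The decarboxylases did not move together. PDC1, the main decarboxylase of fermenting cells, had 77074, 74981 and 75109 normalised counts in the cen4- libraries at 180 min, against 97933, 95894 and 97708 in CEN4. Before beta-estradiol it had 142798, 142395 and 142019 normalised counts in CEN4* and 151597, 147183 and 153789 in CEN4. PDC1 was thus lower in every library at 180 min than in any at 0 min, and lower in every cen4- library than in any CEN4 library of that time. Its excision effect was -0.18 ± 0.0361 at 120 min (SE; limma adjusted p = 1.1e-04) and -0.28 ± 0.0361 at 180 min (adjusted p = 2.9e-09), a level 0.825 times that given by the change in CEN4.

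PDC5 encodes the second decarboxylase, known to be raised when PDC1 is missing or thiamine is short. It had 326, 264 and 298 normalised counts in cen4- cells at 180 min and 162, 181 and 168 in CEN4 cells. At 0 min it had 180, 210 and 189 normalised counts in CEN4* and 181, 177 and 164 in CEN4. The strains overlapped at 0 min and did not at 180 min. Within CEN4 no change of PDC5 with time passed the test, with log2 changes of -0.11 to -0.03, while in cen4- it rose by 0.52 at 120 min and 0.61 at 180 min. The excision effect was 0.59 ± 0.141 at 120 min (SE; limma adjusted p = 9.6e-04) and 0.65 ± 0.141 at 180 min (adjusted p = 1.4e-04), or 1.56-fold. PDC1 and PDC5 share 87.7% of their coding bases, with an identical stretch of 65 bases, so reads could be assigned to the wrong copy and the PDC5 value is uncertain. Added together, the pair had an excision effect of -0.27 at 180 min. PDC1 supplies nearly all of that sum, so it does not bear on the PDC5 value.

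PDC6, a minor decarboxylase whose protein is known to be poor in sulfur amino acids, had the excision effect of largest size at 180 min. It has 6 methionine and cysteine codons among 563, against 17 in PDC1 and 18 in PDC5, a share of 1.07% that only 2.0% of 5391 genes undercut (median 3.35%). Before beta-estradiol it had 58.1, 94.2 and 79.9 normalised counts in CEN4* and 18.6, 10.3 and 18.0 in CEN4. The strains did not overlap, and the difference of 2.26 ± 0.154 (log2, SE) passed limma at an adjusted p of 1.4e-14. At 180 min it had 467, 529 and 470 normalised counts in cen4- and 524, 581 and 529 in CEN4. The libraries then overlapped, with a strain difference of -0.16 ± 0.154 (adjusted p = 0.387).

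PDC6 rose in both strains, by 2.67 (log2) in cen4- and 5.08 in CEN4 between 0 and 180 min. Its excision effect was -0.85 ± 0.218 (SE) at 30 min, -1.77 at 60 min, -2.53 at 120 min and -2.41 at 180 min (limma adjusted p = 0.029, 7.1e-07, 4.6e-12 and 8.1e-12). By construction the value at 180 min is the strain difference of -0.16 at that time minus the 2.26 present at 0 min. At 120 min it had 313, 314 and 277 normalised counts in cen4- and 332, 351 and 415 in CEN4, with every cen4- library below every CEN4 library. That difference of -0.28 did not pass in limma (adjusted p = 0.133), but it passed in edgeR (-0.29, 0.00521), in DESeq2 (-0.28, 0.0126) and with only the compared groups in the fit (0.011). The difference of -0.16 at 180 min passed with only the compared groups in the fit (adjusted p = 0.0226). With the common total the strain difference was -0.136 at 120 min (limma adjusted p = 0.46) and 0.00349 at 180 min (0.985). The gene thus started higher in CEN4*, and at 180 min its libraries overlapped between the strains. The mean at 180 min was lower in cen4- with the deposited size factors and not with the common total. The call at 30 min ended with 1 library left out, at adjusted p of 0.0515 to 0.0981, for CEN4 t0 replicate 2, CEN4 t30 replicates 1 and 2, CEN4* t0 replicates 2 and 3, and cen4- t30 replicates 1, 2 and 3. It was also lost in edgeR (adjusted p = 0.127), with a pseudocount of 5 (0.0532) and with only the compared groups in the fit (0.129).

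As a share of decarboxylase transcripts per kb, PDC1 held 99.0% in cen4- and 99.3% in CEN4 at 180 min, against 99.8% in CEN4* and 99.9% in CEN4 at 0 min. PDC6 at 180 min held 0.639% ± 0.0522 in cen4- and 0.557% ± 0.0383 in CEN4, against 0.0543% ± 0.0128 in CEN4* and 0.0103% ± 0.00289 in CEN4 at 0 min. PDC5 held 0.387% ± 0.0360 in cen4- and 0.174% ± 0.0116 in CEN4 at 180 min. Neither minor gene therefore reached 1% of the family.

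Of the alcohol dehydrogenases, ADH1 makes ethanol during fermentation. It had 73081, 70077 and 70848 normalised counts in cen4- cells at 180 min and 85988, 81641 and 83877 in CEN4. At 0 min the counts were 110532, 108976 and 109808 in CEN4* and 107882, 106720 and 109661 in CEN4. The strains overlapped at 0 min, and at 180 min every cen4- library was below every CEN4 library. The excision effect was -0.12 ± 0.0356 (SE) at 120 min (limma adjusted p = 0.010) and -0.26 ± 0.0356 at 180 min (adjusted p = 1.8e-08). Without CEN4 t120 replicate 2 the value at 120 min was -0.09 and missed the threshold (adjusted p = 0.0532).

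ADH2 encodes the glucose-repressed enzyme that oxidises ethanol. It had 453, 464 and 476 normalised counts in cen4- cells at 180 min and 457, 430 and 472 in CEN4, and at 0 min 622, 614 and 678 in CEN4* and 650, 640 and 659 in CEN4. The strains overlapped at both times. The 95% interval of its excision effect at 180 min, -0.12 to 0.25, covered 0 (limma adjusted p = 0.615). ADH1 and ADH2 share 88.8% of coding bases and an identical stretch of 189 bases, so the ADH2 count, 0.648% of the pair per kb in cen4- and 0.537% in CEN4 at 180 min, is uncertain.

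The aldehyde dehydrogenases changed places. ALD4, the main mitochondrial enzyme, had 4280, 4383 and 4431 normalised counts in cen4- cells at 180 min and 1479, 1351 and 1559 in CEN4. At 0 min it had 1006, 1061 and 1121 normalised counts in CEN4* and 699, 753 and 769 in CEN4. Every library of the lox-flanked strain was above every CEN4 library at both times. The strain difference was 0.52 ± 0.0618 (log2, SE) at 0 min (limma adjusted p = 8.8e-08) and 1.58 ± 0.0618 at 180 min (adjusted p = 8.6e-21). The excision effect, the growth of that gap, was 0.18 at 30 min (adjusted p = 0.366), 0.09 at 60 min (0.730), 0.50 ± 0.0874 at 120 min (5.0e-05) and 1.06 ± 0.0874 at 180 min (9.4e-12), or 2.08-fold. Between 120 and 180 min the mean of ALD4 went up to 4365 ± 77.0 normalised counts in cen4-, against 3997 ± 141 at 120 min, and was 1463 ± 105 in CEN4 at 180 min, against 1980 ± 176 at 120 min.

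ALD6, the cytosolic enzyme that supplies most acetate on glucose, had 3746, 3604 and 3930 normalised counts in cen4- cells at 180 min and 4098, 4078 and 4542 in CEN4. At 0 min it had 5665, 6265 and 6241 normalised counts in CEN4* and 6182, 6730 and 6881 in CEN4. The strains overlapped at 0 min and not at 180 min. Its excision effect passed at no time, with values of -0.16, -0.21, -0.13 and -0.05 at 30, 60, 120 and 180 min (limma adjusted p = 0.311, 0.135, 0.205 and 0.637), and the 95% interval at 180 min was -0.20 to 0.10. At 60 min it passed without CEN4* t0 replicate 1 (-0.26, adjusted p = 0.0425) and with only the compared groups in the fit (adjusted p = 0.0377).

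ALD5, a mitochondrial enzyme of lower activity, had 1416, 1452 and 1482 normalised counts in cen4- cells at 180 min and 1587, 1678 and 1621 in CEN4. At 0 min it had 2312, 2352 and 2252 normalised counts in CEN4* and 2287, 2321 and 2302 in CEN4. The strains overlapped at 0 min and were apart at 180 min. The excision effect was small and steady, at -0.18, -0.19, -0.20 and -0.17 (SE 0.0547 each) at 30, 60, 120 and 180 min (limma adjusted p = 0.0682, 0.0433, 0.00386 and 0.00984). The call at 60 min ended, at adjusted p of 0.0706 to 0.137, without CEN4 t0 replicate 1 or 3, CEN4 t60 replicate 1 or 2, CEN4* t0 replicate 1 or 2, or cen4- t60 replicate 1 or 2, and with only the compared groups in the fit (0.068). At 30 min ALD5 passed in DESeq2 (adjusted p = 0.0329) and with array weights (0.0155).

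Within the family ALD4 came to 44.9% ± 0.748 of the transcripts per kb in cen4- cells at 180 min and 19.5% ± 0.825 in CEN4, against 11.01% ± 0.344 in CEN4* and 7.48% ± 0.0492 in CEN4 at 0 min. ALD6 held 40.2% ± 0.949 in cen4- and 58.7% ± 0.880 in CEN4 at 180 min. ALD5 held 14.9% ± 0.211 in cen4- and 21.7% ± 1.29 in CEN4 at that time. The largest share at 180 min was thus that of ALD4 in cen4- and of ALD6 in CEN4.

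**Figure D3:**
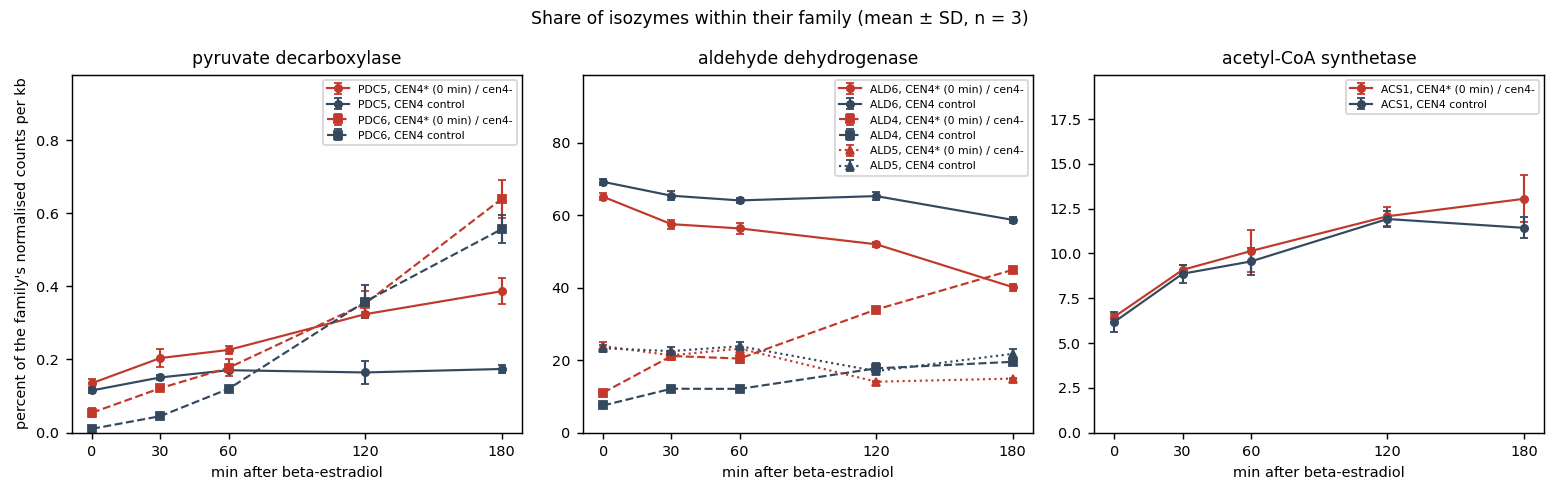
Share of each family's normalised counts per kb (percent, vertical axes of different scale) held by isozymes at 0 to 180 min after beta-estradiol, mean ± SD of 3 libraries, red for the lox-flanked strain and blue for CEN4; PDC1, ADH1, ADH2 and ACS2 are not drawn. The ALD4 share passed that of ALD6 in cen4- at 180 min (44.9% against 40.2%) and not in CEN4.

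Neither acetyl-CoA synthetase passed the test of the excision effect at any time. ACS1, the glucose-repressed isozyme, had 381, 429 and 406 normalised counts in cen4- cells at 180 min and 362, 366 and 363 in CEN4, and at 0 min 249, 245 and 250 in CEN4* and 256, 248 and 223 in CEN4. All libraries were higher at 180 min than at 0 min, and the cen4- libraries were above those of CEN4. The excision effect at 180 min was 0.12, with a 95% interval of -0.09 to 0.33 (limma adjusted p = 0.388). ACS2, the isozyme required on glucose, had 2725, 2434 and 2620 normalised counts in cen4- cells at 180 min and 2771, 2550 and 2794 in CEN4, with overlap. Its excision effect at 180 min was -0.02 (95% interval -0.18 to 0.14; adjusted p = 0.846). At 120 min it was 0.16 (adjusted p = 0.140), and it passed there without CEN4 t0 replicate 2 (0.21, adjusted p = 0.0432). ACS1 held 13.1% ± 1.32 of the pair per kb in cen4- and 11.4% ± 0.580 in CEN4 at 180 min, against 6.46% ± 0.145 in CEN4* and 6.18% ± 0.550 in CEN4 at 0 min.

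The small downward effects depended on scaling. With the common total, the median excision effect of all genes at 180 min was 0.09, against -0.01, and PDC1 (-0.17, limma adjusted p = 6.6e-05) and ADH1 (-0.15, 1.5e-04) still passed. ALD5 did not pass at 120 min (-0.12, 0.101) or 180 min (-0.06, 0.357), nor ADH1 at 120 min (-0.03, 0.484), and PDC1 at 120 min was -0.09 (0.041), while ACS2 at 120 min passed at 0.24 (0.0216).

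The strains can also be compared directly at each time, the lox-flanked strain minus CEN4. At 0 min 3 of the 10 genes differed (15.9% of all genes), PDC6 and ALD4 upward as given above and PDC1 downward by 0.08 on the log2 scale (limma adjusted p = 0.0166). The PDC1 call ended without CEN4 t0 replicate 1 (adjusted p = 0.0614), CEN4 t0 replicate 3 (0.102) or CEN4* t0 replicate 3 (0.0592), and with scaling to the same total (-0.03, 0.493). At 30 min 5 genes differed (30.2% of all genes), PDC6 (1.41), ALD4 (0.70) and PDC5 (0.40) upward and ALD6 (-0.29) and ALD5 (-0.18) downward (limma adjusted p = 2.1e-09 to 0.00114). PDC1, ADH1, ADH2, ACS1 and ACS2 did not pass there, at -0.10 to 0.05. With scaling to the same total ADH1 passed upward at 0 min (0.08, limma adjusted p = 0.0123) and at 30 min (0.10, 5.6e-04). ALD6 passed downward at 0 min without CEN4 t0 replicate 1 (-0.17, 0.0301) and with only the compared groups in the fit (-0.12, 0.0381). At 60 min 8 differed (27%), ALD4 (0.61), PDC6 (0.49), PDC5 (0.34), ACS1 (0.23) and ADH1 (0.08) upward and ALD6 (-0.33), ALD5 (-0.19) and PDC1 (-0.07) downward (limma adjusted p = 1.8e-09 to 0.0329), but not ADH2 (0.12) or ACS2 (0.14). The 8 at 60 min were 5 without cen4- t60 replicate 1, which ended the calls of PDC1, PDC6 and ADH1. These calls also ended elsewhere. PDC1 lost its call without CEN4 t60 replicate 1 (adjusted p = 0.315), in DESeq2 (0.0518) and with scaling to the same total (-0.01, 0.87), among others. PDC6 lost its call without CEN4 t60 replicate 3 (0.0719) or cen4- t60 replicate 3 (0.0706), and ADH1 without CEN4 t60 replicate 2 (0.127). The PDC5 call at 60 min ended without CEN4 t60 replicate 2 (0.29, adjusted p = 0.0502), and that of ACS1 without CEN4 t60 replicate 1 (0.19, 0.0827) or cen4- t60 replicate 3 (0.19, 0.0805). ACS2 at 60 min passed upward in DESeq2 (adjusted p = 0.043), with array weights (0.0131) and without CEN4 t60 replicate 1 (0.038) or cen4- t60 replicate 3 (0.00511). With scaling to the same total both ACS2 (0.20, adjusted p = 0.00686) and ADH2 (0.18, 0.0327) passed upward at 60 min. At 120 min 6 differed (52.8%), ALD4 (1.02) and PDC5 (0.73) upward and PDC1 (-0.26), ALD6 (-0.25), ALD5 (-0.20) and ADH1 (-0.09) downward (limma adjusted p = 2.5e-15 to 0.00118), but not PDC6, ADH2 (-0.08), ACS1 (0.14) or ACS2 (0.12). With scaling to the same total the 120 min differences of ALD6 (-0.11), ALD5 (-0.06) and ADH1, whose sign turned (0.045), did not pass (adjusted p = 0.0935, 0.183 and 0.0924), while ACS1 (0.28) and ACS2 (0.26) did (9.02e-04 and 2.35e-04). At 180 min 6 differed (64.1%). At 180 min ALD4 (1.58) and PDC5 (0.79) were higher in cen4-, and PDC1 (-0.36), ADH1 (-0.23), ALD6 (-0.17) and ALD5 (-0.17) lower (limma adjusted p = 8.6e-21 to 0.0048). ALD6 and ALD5 did not pass with scaling to the same total, at -0.01 each (adjusted p = 0.864 and 0.880). The other 4 had differences of -0.16 for PDC6, 0.04 for ADH2, 0.15 for ACS1 and -0.06 for ACS2. With that scaling ADH2 (0.20, adjusted p = 0.00708) and ACS1 (0.31, 1.9e-04) passed as higher in cen4-, and of all genes 3017 passed upward and 1087 downward, against 1840 upward and 1975 downward with the deposited factors.

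Most of the pathway changed with time in both strains. Between 0 and 180 min all 10 genes passed in cen4-, 4 upward and 6 downward (75.2% of all genes, 37.5% upward and 37.7% downward), and 9 passed in CEN4, 3 upward and 6 downward (71.2%, 36% upward and 35.2% downward). PDC6, ALD4 and ACS1 rose in both, ALD4 by 2.04 (log2) in cen4- and 0.98 in CEN4, ACS1 by 0.70 in cen4- and 0.59 in CEN4. PDC1 fell by 0.91 in cen4- and by 0.63 in CEN4, ADH1 fell by 0.62 in cen4- and by 0.37 in CEN4, ALD6 fell by 0.69 in cen4- and by 0.64 in CEN4, and ALD5 fell by 0.67 in cen4- and by 0.50 in CEN4. ADH2 fell by 0.46 in cen4- and by 0.52 in CEN4, and ACS2 fell by 0.41 in cen4- and by 0.38 in CEN4. PDC5 was the exception, rising by 0.61 in cen4- and at -0.03 in CEN4 (limma adjusted p = 0.788). The median of the 10 genes was -0.43 in cen4- and -0.38 in CEN4, against -0.00 and 0.00 for all genes. With scaling to the same total 3746 of all genes passed upward and 1051 downward in cen4-, and 3304 upward and 1193 downward in CEN4.

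These changes began early for PDC1, PDC6, ADH2, ALD4 and ACS1, which had passed by 30 min in both strains. PDC6 rose by 0.74 (log2) in cen4- and 1.59 in CEN4 at 30 min (limma adjusted p = 6.8e-05 and 1.2e-11), the largest of them in CEN4. In cen4- ALD4 had the larger rise, with a 95% interval of 0.826 to 1.08 against 0.43 to 1.05 for PDC6. At 30 min 7 genes passed in cen4- (62.2% of all genes), these and ALD6 and ALD5, and 6 in CEN4 (63.7%), these and ACS2. At 60 min all but PDC5 passed in cen4- (56.5%) and in CEN4 (57.1%). At 120 min all but ALD6 passed in cen4- (72%), and all but PDC5 and ALD6 in CEN4 (70.6%). PDC6, ALD4 and ACS1, with PDC5 in cen4- at 120 min, rose at these times, and the others that passed fell.

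ALD6 had log2 changes of -0.17, -0.45, -0.04 and -0.69 at 30, 60, 120 and 180 min in cen4- and -0.00, -0.24, 0.09 and -0.64 in CEN4. It was thus lower at 60 min, near its start at 120 min and lowest at 180 min in both strains. The call at 30 min in cen4- ended without cen4- t30 replicate 3 (-0.12, limma adjusted p = 0.0583) and with scaling to the same total (-0.03, 0.692). With that scaling the call at 60 min in CEN4 also ended (-0.08, 0.249), and ALD6 at 120 min passed as a rise in both, at 0.24 in cen4- (adjusted p = 6.0e-04) and 0.29 in CEN4 (9.5e-05). The call of ACS2 at 30 min in CEN4 (-0.17) ended without CEN4 t0 replicate 1 (adjusted p = 0.0629) or CEN4 t30 replicate 1 (0.072) and with scaling to the same total (-0.04, 0.517). That of ALD5 at 60 min in CEN4 (-0.10) ended, at adjusted p of 0.0502 to 0.185, without CEN4 t0 replicate 2 or 3 or CEN4 t60 replicate 2 or 3, and its sign turned with scaling to the same total (0.066, 0.132). With scaling to the same total ADH1 at 30 min passed as a rise, at 0.16 in cen4- (9.7e-09) and 0.14 in CEN4 (3.0e-07), and the falls of ALD5 at 30 min (-0.01, 0.782), ADH2 at 60 min (-0.13, 0.079) and ACS2 at 60 min (-0.07, 0.273) and 120 min (-0.04, 0.486) in cen4- did not pass. PDC5 in cen4- then passed as a rise at 30 min (0.29, 0.00862) and 60 min (0.30, 0.0062), as did ALD5 in CEN4 at 30 min (0.15, 5.5e-04). The fall of ALD5 in CEN4 at 120 min did not pass with that scaling (-0.08, limma adjusted p = 0.0506).

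With scaling to the same total the median gene moved up, to 0.31 in cen4- and 0.21 in CEN4 at 180 min, and the falls were smaller. PDC1 was then -0.60 in cen4- and -0.43 in CEN4, ADH1 -0.31 and -0.16, ALD6 -0.37 and -0.43, ALD5 -0.36 and -0.29, and ADH2 -0.14 and -0.31 in those strains, all still passing, while ACS2 passed in CEN4 (-0.17, 0.00666) and not in cen4- (-0.09, 0.129).

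**Figure D4:**
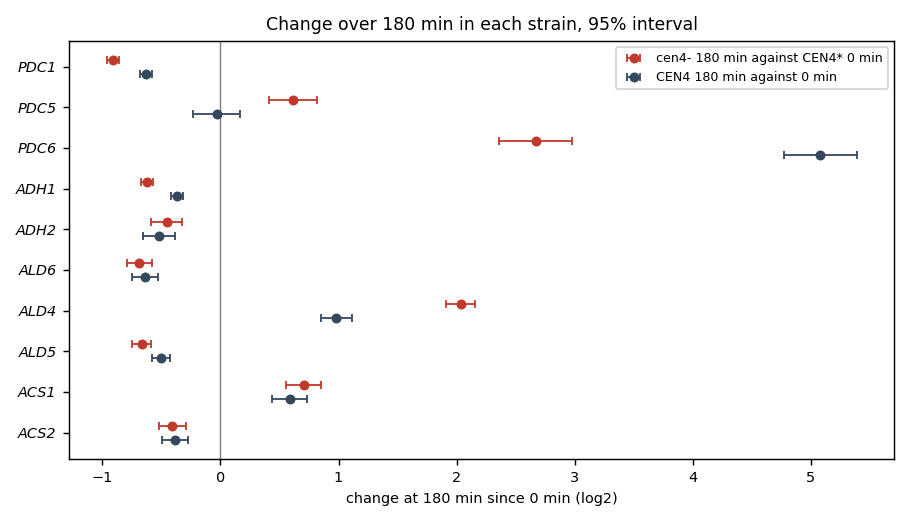
Log2 change between 0 and 180 min (horizontal axis) of the 10 genes in the lox-flanked strain (red, above) and CEN4 (blue, below), with 95% intervals. PDC6 rose by 2.67 in cen4- and 5.08 in CEN4, ALD4 by 2.04 and 0.98, and PDC5 by 0.61 in cen4- only, its value in CEN4 being -0.03.

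Over the 30 libraries, PDC6 was most like GRE1 (Pearson r = 0.965 on log2 values), ALD3 (0.961) and PCK1 (0.957). ACS1 was most like FMP33 (0.960), GOR1 (0.959) and ETR1 (0.959), and PDC5 most like USO1 (0.949), YGR130C (0.936) and RPT3 (0.924). ADH2 was most like RSA4 (0.953) and ENP1 (0.945), which act in ribosome assembly, and HMT1 (0.946), a methyltransferase of RNA-binding proteins. Among the members, the closest to PDC1 and ADH1 was ALD5 (0.800 and 0.856), to PDC5 ALD4 (0.788), to PDC6 ACS1 (0.832) and to ADH2 PDC1 (0.742). ALD6 was closest to ALD5 (0.698), ALD5 and ACS2 to ADH1 (0.856 and 0.844), and ALD4 and ACS1 to each other (0.860). These correlations describe libraries that the genes share, grouped by strain and time.

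Genes around the pathway were counted from 6 lists at 180 min, by the same excision effect, for which 42.3% of all genes passed. Counts given at 180 min include any strain difference already present at 0 min, which the excision effect sets aside. Of 12 genes for pyruvate supply and mitochondrial use 5 passed, 3 upward and 2 downward (median 0.08). With scaling to the same total 9 of these 12 passed, 8 upward and 1 downward. In edgeR, in DESeq2 and with only the compared groups in the fit 5 passed, 2 upward and 3 downward. MPC3, the mitochondrial pyruvate carrier subunit of respiring cells, had 183 ± 10.6 normalised counts in cen4- and 77.0 ± 15.5 in CEN4 at 180 min, an effect of 0.90 ± 0.279 (SE; limma adjusted p = 0.00679). MPC2, its counterpart in fermenting cells, had -0.27 (adjusted p = 2.2e-05), and the pyruvate carboxylase PYC1 0.32 (2.1e-04). The pyruvate kinase PYK2, at 0.28 (0.0394), lost its call in edgeR (0.0903), in DESeq2 (0.0901), with only the compared groups in the fit (0.0503) and without CEN4 t0 replicate 1 or 2, CEN4 t180 replicate 1 or 3, CEN4* t0 replicate 2 or 3, or cen4- t180 replicate 2 or 3 (0.0561 to 0.14).

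Of 9 other alcohol dehydrogenases and decarboxylases 5 passed, 2 upward and 3 downward (median -0.15), and with scaling to the same total 3 passed upward and 2 downward. BDH2, a relative of butanediol dehydrogenase, had 2598 ± 52.7 normalised counts in cen4- and 910 ± 11.6 in CEN4 at 180 min. Its excision effect was 0.62 ± 0.0777 (SE; limma adjusted p = 1.1e-09), less than the gap in counts, part of which was present at 0 min. SFA1, a formaldehyde and alcohol dehydrogenase, had 0.32 (adjusted p = 1.8e-05), ARO10, a phenylpyruvate decarboxylase, -0.36 (1.1e-04), and ADH3, the mitochondrial alcohol dehydrogenase, -0.25 (1.9e-05). Of 3 other aldehyde dehydrogenases 2 passed (median 0.10), HFD1, a fatty aldehyde dehydrogenase, at 0.46 (7.3e-07) and the stress-induced ALD3 at -0.81 (6.3e-05). ALD3 had 2973 ± 141 normalised counts in cen4- and 2033 ± 112 in CEN4 at 180 min, so that, unlike PDC6, it remained higher in the lox-flanked strain. ALD3 lies beside the close copy ALD2, so its count is uncertain.

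Of 10 genes for acetate transport and acetyl-CoA use 4 passed, all upward (median 0.18), and with scaling to the same total 6, all upward. CAT2, a carnitine acetyltransferase of mitochondria and peroxisomes, had 569 ± 24.3 normalised counts in cen4- and 182 ± 15.2 in CEN4 at 180 min. Its excision effect was 1.06 ± 0.133 (SE; limma adjusted p = 9.7e-10), less than the gap in counts, part of which was present at 0 min. ACH1, a mitochondrial CoA transferase that takes acetate, had 0.48 (adjusted p = 3.6e-07), the carnitine acetyltransferase YAT2 0.32 (0.00306) and the mitochondrial acetyl-CoA carboxylase HFA1 0.22 (0.00807). Of 10 thiamine genes 2 passed (median 0.05), the transporter THI7 at 0.36 (6.6e-04) and the biosynthesis gene THI6 at -0.28 (0.00358), whose call ended with scaling to the same total (-0.18, 0.0739). With that scaling 4 of the 10 passed, all upward, while without CEN4* t0 replicate 3 and with array weights 4 passed, 2 upward and 2 downward.

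Of 18 regulators of the pathway genes 8 passed, 7 upward and 1 downward (median 0.13 against -0.01 for all genes). With scaling to the same total 12 of the 18 passed, all upward, where the median of all genes was 0.09. ADR1, the activator whose motif is shown in the ADH2, ALD4 and ACS1 windows, had 958 ± 45.5 normalised counts in cen4- and 489 ± 13.5 in CEN4 at 180 min, an excision effect of 0.88 ± 0.0937 (SE; limma adjusted p = 5.4e-12). CAT8, an activator through the carbon source element, had 523 ± 20.0 normalised counts in cen4- and 268 ± 20.2 in CEN4, an effect of 0.81 ± 0.125 (adjusted p = 2.1e-07). HAA1, an activator in acetic acid stress, had 0.30 (2.1e-04). THI2, an activator of thiamine genes, had 0.62 (0.0118), which ended without CEN4 t0 replicate 2 (0.0552) or CEN4 t180 replicate 3 (0.093). Beside these transcripts of regulators, the excision effects of the 3 genes with Adr1 motifs at 180 min were 1.06 for ALD4, which passed, and 0.12 for ACS1 and 0.07 for ADH2, which did not.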

How the data were processed

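The deposited table holds 1 signal value per gene and library, a normalised count from DESeq2, per the deposited table's title, and its values are whole reads that the authors divided by 1 factor per library. STAR 2.6.1, DESeq2 and the builds R64 and sacCer3 are named in the submitters' processing notes. The counting tool, strand use and annotation version are not given in the sources used here, and without strand a gene's reads cannot be told from those of an antisense or overlapping partner. In all 30 libraries 100% of values were whole multiples of 1 read within 1e-06 of a read, which gave back the reads.

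The 5948 genes that averaged 10 or more normalised counts were tested on log2(normalised count + 1) with limma 3.58.1 (trend and robust options) in R 4.3.3, all 10 groups in 1 fit, with Benjamini-Hochberg adjustment over all of these genes in each comparison and a threshold of 0.05. The log scale understates changes of low genes. As alternatives, count tests were run on the recovered reads. At 180 min edgeR 4.0.16 called 2495 and DESeq2 1.42.0 called 2329 genes for the excision effect, against 2516 by limma. Other alternatives were pseudocounts of 0.5 and 5, other filters, array weights, scaling to the same total, only the compared groups, a replicate block and leaving out each library. The procedure was tested on simulated data in which few genes changed, all upward and in 1 group, unlike in these data.

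All 10 members were tested in every comparison, and those called are named. From each list up to 4 called genes with the largest excision effect at 180 min are named, and the 3 most alike genes for PDC6, ACS1, PDC5 and ADH2. The members and lists were chosen with earlier results of these data known. Upstream windows were read from the RefSeq R64 genome. Proteins were not used here.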

Additional observations from a re-analysis of the deposited data

Results flagged for a closer look

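Changes since 0 min that differed between cen4- and CEN4 cells, by limma's test of that difference itself, are gathered here as values. They were found for PDC6 at 30, 60, 120 and 180 min (-0.85, -1.77, -2.53 and -2.41 on the log2 scale) and for ALD5 at 60, 120 and 180 min (-0.19, -0.20 and -0.17). PDC1 (-0.18 and -0.28), ADH1 (-0.12 and -0.26), PDC5 (0.59 and 0.65) and ALD4 (0.50 and 1.06) differed at 120 and 180 min.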

How the results depend on the processing

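Of 110 calls for the 10 genes over 17 comparisons, 84 held under every alternative that gave a value and 26 were lost under at least 1, while 22 of 60 other results gained a call. The number of the 10 genes called for the excision effect at 30 min was 1, and became 0 in edgeR, with a pseudocount of 5, with only the compared groups and with the replicate block, 2 with array weights, and 0 to 1 without 1 library. At 60 min it was 2, and became 1 with scaling to the same total and 1 to 2 without 1 library. For the strain difference at 60 min it was 8, and 5 to 7 without 1 library. At 180 min the excision count was 6 without any 1 library, and 5 with scaling to the same total. Scaling to the same total reversed 2 called values, those of ADH1 in the strain difference at 120 min (0.045 in place of -0.09) and ALD5 in CEN4 at 60 min against 0 min (0.066 in place of -0.10). In the titles, 1 library of each strain at the same time shares a number, and these numbers showed little pairing between the strains. Of 15 same-numbered pairs 1 correlated above 0.1 (range -0.10 to 0.12), and 6 of 15 correlated best with their own number. The replicate block used these numbers, and pairing of libraries between times was not tested. With that replicate block the PDC6 excision effect at 30 min had an adjusted p of 0.137, that of ALD5 at 60 min 0.0576 and the PDC6 strain difference at 60 min 0.0656, and ALD6 at 60 min (0.0324) and ACS2 at 120 min (0.046) passed. DESeq2 gave no adjusted p for PDC6 at 30 min. Of the 20 genes named from the lists, PYK2, THI2 and THI6 lost a call under some alternative. Depth limits PDC6 most, which had 10.3 normalised counts in its lowest library.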
